A study of Rattus norvegicus with 115 samples.

Results

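Levels of 4 choroid plexus genes, Ttr, Otx2, Sostdc1 and F5, are described here in rat brain tumours and in the opposite hemisphere. They were chosen with their values on these arrays already known, so their levels are described with no test. Every probe set that the array annotation gives to exactly 1 of these symbols was taken. That gave 5 probe sets for 4 genes, of 20826 probe sets with a single symbol and 14217 genes. Ttr is 1367598_at, Sostdc1 is 1379281_at and F5 is 1374320_at, while Otx2 has 1375465_at and 1375394_at. A further probe set shared by Ttr, Mt1 and Mt1f was left out.

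The study gave Fisher rats a brain tumour by injecting 100000 cells of the 9L rat tumour line into the right caudate nucleus, a part of the striatum that borders the lateral ventricle. After 10 days, rats received MRT, an array of synchrotron X-ray microbeams with 400 Gy in the beams and 18 Gy in the valleys between them. Others received BB, a broad beam of 17.4 Gy, or no irradiation (Untreated). Tumours were taken 6 h, 48 h, 8 d and 15 d later, from 9, 8, 7 and 4 rats after MRT and 6, 4, 4 and 4 after BB. Untreated tumours came from 5, 4 and 4 rats at 6 h, 48 h and 8 d. The contralateral region, from the hemisphere without the implant, was taken from 9, 7, 6 and 4 rats after MRT and 6, 3, 4 and 4 after BB. Untreated contralateral regions came from 5, 4 and 4 rats at the first 3 times. Every rat, the Untreated ones included, carried a tumour, and 55 of 60 rats gave both tissues. In all, 115 arrays were used, 59 of tumour and 56 of contralateral brain, and their number limits the precision. The labels do not say whether a ventricle or its choroid plexus lay in a dissected piece.

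The choroid plexus is a folded sheet of epithelium over capillaries inside the brain ventricles, and it secretes cerebrospinal fluid. Its epithelial cells make transthyretin, the product of Ttr, in large amounts; the protein carries thyroxine and binds the retinol carrier protein. Otx2 encodes a homeodomain transcription factor of the choroid plexus and retina. Sostdc1 encodes a secreted antagonist of bone morphogenetic proteins that also acts on Wnt signalling. F5 encodes coagulation factor V, the cofactor of activated factor X, best known as a liver and platelet product.

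The genes lie on 4 chromosomes in the rat assembly GRCr8. Ttr spans chr18:12216684-12225972, Otx2 chr15:24422876-24432709, Sostdc1 chr6:58778623-58782797 and F5 chr13:79046657-79116247. The promoter reference used here held no entry for Otx2 or Sostdc1, so no stretch is shown for them. The 250 bases before the start of Ttr (chr18:12218508-12218757, plus strand) and of F5 (chr13:79046407-79046656, plus strand) are given below from RefSeq for GRCr8. The start is the one the RefSeq table uses, and for Ttr it lies inside the annotated span. They were searched on both strands for TAATCC and TAATCT, 2 forms of the site bound by Otx-type homeodomains, which differ in the last letter and do not overlap. Capitals mark a match.
Ttr: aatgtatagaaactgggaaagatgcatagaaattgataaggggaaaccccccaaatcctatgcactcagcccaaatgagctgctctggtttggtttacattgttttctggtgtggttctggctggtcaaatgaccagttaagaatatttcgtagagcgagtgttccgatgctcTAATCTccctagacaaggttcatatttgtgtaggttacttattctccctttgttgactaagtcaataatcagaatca
F5: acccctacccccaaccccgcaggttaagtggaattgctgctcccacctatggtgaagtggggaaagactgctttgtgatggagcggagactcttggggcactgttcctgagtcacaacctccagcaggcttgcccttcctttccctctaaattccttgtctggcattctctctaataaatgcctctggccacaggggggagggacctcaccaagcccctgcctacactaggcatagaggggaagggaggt
The Ttr stretch holds TAATCT on the plus strand, 77 to 72 bases before the start. Over all 33469 promoters of this length, 7.72% hold TAATCT and 6.34% hold TAATCC. The F5 stretch has neither run of letters. A match describes the letters and does not show binding.

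Ttr ran over a wide range of levels, and no array of either tissue stood between 374 and 804. Of the 56 contralateral arrays, 6 had a Ttr intensity under 500, from 137 to 189, and the next array stood at 1004. At the other end, 40 of the 56 were at 10000 or more, and the highest was 20696, which is 151 times the lowest. Tumours split more evenly: 27 of 59 arrays were under 500, from 88 to 374, the next stood at 804, and 14 were at 10000 or more. The tumour median was 1146, against 14834.5 in contralateral brain. Within either tissue the span was larger than the gap between the tissue medians. In such bulk pieces, fewer choroid plexus cells and less RNA per cell cannot be told apart.

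**Figure D1:**
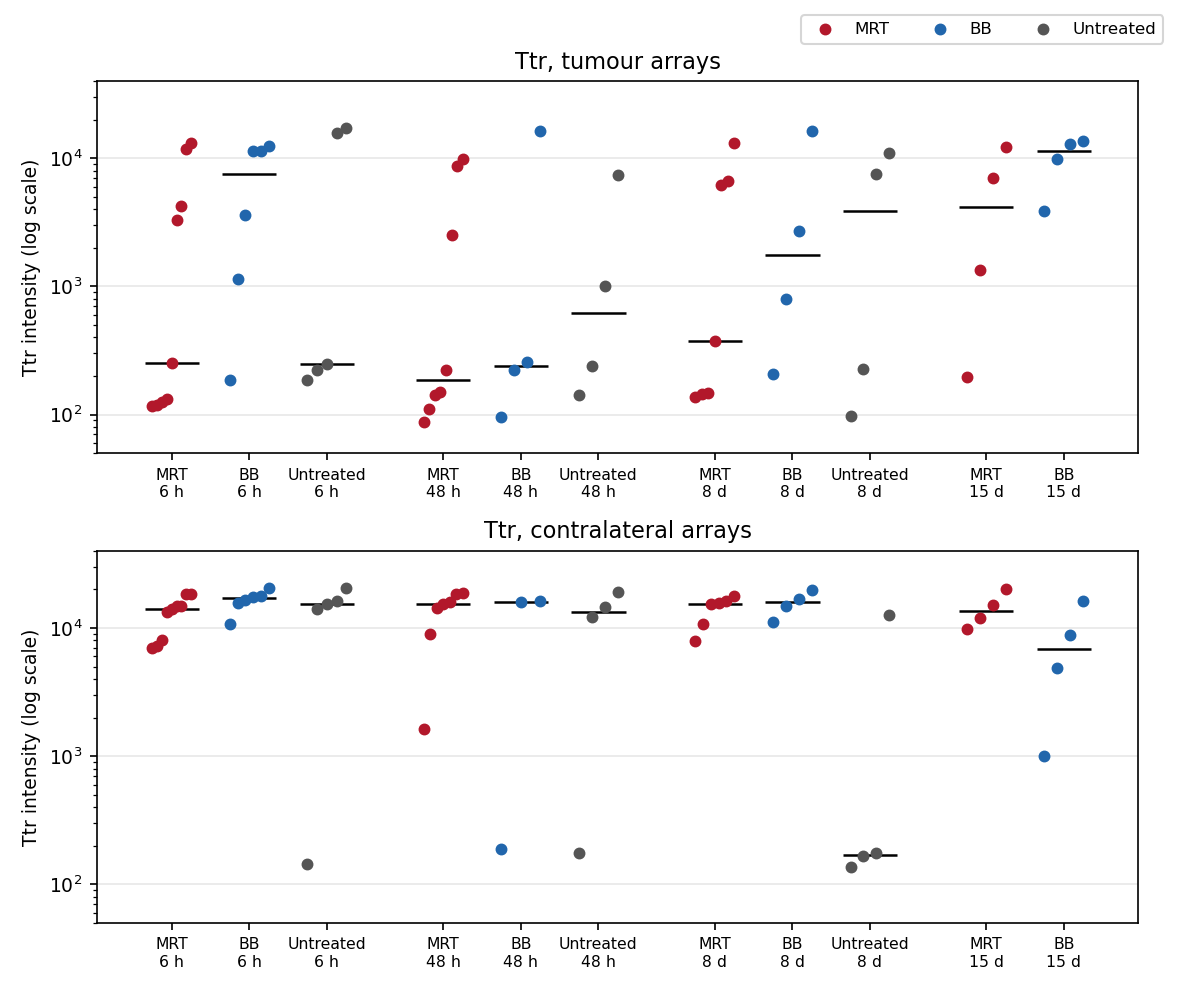
Ttr intensity (log scale) on every array, for tumours (top) and contralateral brain (bottom), by treatment and time; each point is 1 array and each line the group median. Contralateral arrays under 500 are 5 Untreated and 1 BB, whereas 27 tumour arrays of all 3 treatments are under 500.

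The low contralateral arrays were unevenly spread over the groups. None of 26 MRT arrays was under 500, against 1 of 17 BB arrays and 5 of 13 Untreated arrays. In Untreated brain they were 1 of 5 arrays at 6 h, 1 of 4 at 48 h and 3 of 4 at 8 d. Among tumours, 15 of 28 MRT arrays, 5 of 18 BB arrays and 7 of 13 Untreated arrays were under 500. The groups with no array under 500 were contralateral MRT at all 4 times, contralateral BB at 6 h, 8 d and 15 d, and BB tumours at 15 d.

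At 6 h the contralateral Ttr intensity ran from 6997 to 18577 after MRT, with a median of 14185. After BB it ran from 10673 to 20542, with a median of 17012. The 5 Untreated arrays stood at 144, 14155, 15327, 16106 and 20696. The array at 144 was that of rat 1, and the other Untreated arrays stood among or just above the irradiated ones. The log2 difference from Untreated was 0.94 ± 0.96 for MRT and 1.34 ± 1.05 for BB (SE from the fit over all contralateral arrays, given as a description with no test).

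At 48 h the contralateral pieces ran from 1622 to 18655 after MRT, with a median of 15424. The 3 BB arrays stood at 189, 15896 and 16287, and the 4 Untreated arrays at 174, 12259, 14461 and 19011. Each group thus held 1 array far below the others: rat 25 after MRT, rat 50 after BB and rat 15 without irradiation. The groups overlapped, with log2 differences of 1.14 ± 1.08 for MRT and -0.43 ± 1.32 for BB (SE).

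At 8 d the Untreated contralateral arrays were the low ones. After MRT, Ttr ran from 7923 to 17763 with a median of 15525.5, and after BB the 4 arrays stood at 11134, 14792, 16910 and 19705. The 4 Untreated arrays stood at 137 in rat 28, 166 in rat 30, 174 in rat 39 and 12735 in rat 29. Rat 29 lay inside the range of the irradiated arrays, so the groups overlapped. The log2 difference was 4.83 ± 1.11 for MRT and 5.01 ± 1.22 for BB (SE).

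At 15 d there were no Untreated rats. The contralateral MRT arrays stood at 9765, 12018, 15038 and 20093, and the BB arrays at 1004, 4831, 8772 and 16315. The ranges overlapped, and the lower 3 BB arrays were below every MRT array. MRT minus BB was 1.42 ± 1.22 on the log2 scale (SE).

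In tumours most groups spanned nearly the whole range of levels. At 6 h Ttr ran from 117 to 13211 after MRT (median 252) and from 187 to 12593 after BB (median 7509.5). The 5 Untreated tumours stood at 187, 223, 248, 15662 and 17384. Low and high tumours stood side by side in each of these groups.

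At 48 h the MRT tumours ran from 88 to 9832 (median 186.5). The BB tumours stood at 95, 222, 256 and 16353, and the Untreated ones at 143, 240, 1004 and 7394. Here too 1 BB tumour, of rat 52, stood far above the other 3.

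At 8 d the MRT tumours ran from 138 to 13088 (median 374). The BB tumours stood at 207, 804, 2724 and 16320, and the Untreated ones at 98, 225, 7526 and 10929. At 15 d the MRT tumours stood at 195, 1351, 6976 and 12195 and the BB tumours at 3912, 9854, 12887 and 13733. The 15 d BB tumours were the one tumour group whose lowest array was above 500. The log2 differences in tumours had standard errors of 1.55 to 1.96, and the largest of them, MRT minus BB at 15 d, was -2.06 ± 1.96.

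Both tissues of the same rat often differed. Of 55 rats, Ttr was lower in the tumour than in the contralateral piece in 44 and higher in 11. In 29 rats both pieces were at 500 or more, in 21 only the contralateral piece was, in 2 only the tumour was, and in 3 neither was. The last 3 were the Untreated rats 1 and 28 and the BB rat 50. The 2 with a high tumour alone were the Untreated rats 15 and 30, whose tumours stood at 1004 and 7526, against 174 and 166 in contralateral brain. In the BB rat 59 at 15 d the tumour stood at 13733, against 1004 in contralateral brain.

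**Figure D2:**
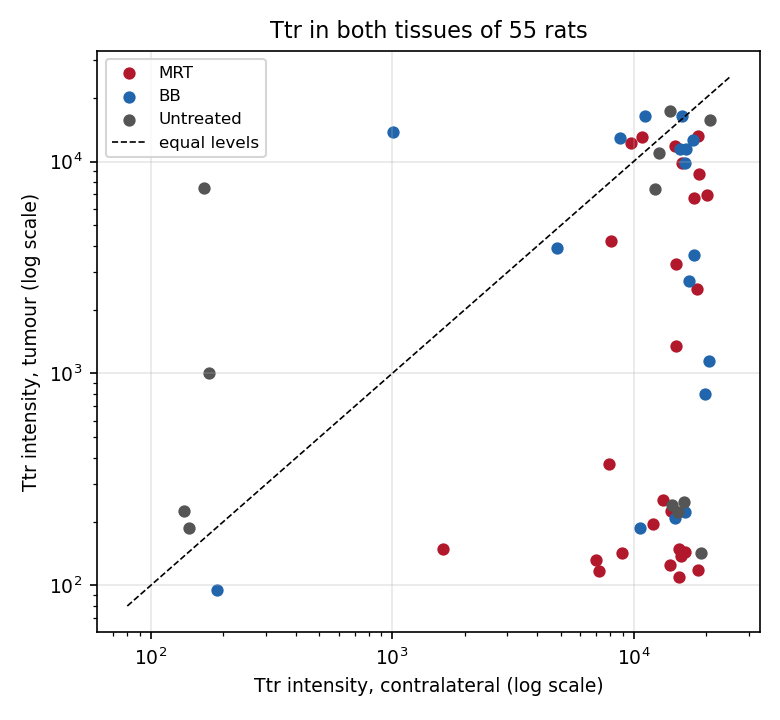
Ttr intensity in the tumour (vertical axis) against the contralateral region (horizontal axis) of the 55 rats with both tissues, both on log scales; each point is 1 rat, coloured by treatment, and the dashed line marks equal levels. In 44 rats the point lies below the line, and most low tumours belong to rats with a bright contralateral piece.

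Otx2, read by 1375465_at, followed Ttr. In contralateral brain it was 18 to 24 on the 6 arrays with Ttr under 500 and 22 to 292 on the other 50. In tumours it was 11 to 145 on the 27 low arrays and 20 to 245 on the other 32. Among arrays with Ttr at 500 or more, Pearson's r between the log2 levels was 0.70 (Spearman's rho 0.77) over 32 tumours and 0.76 (rho 0.88) over 50 contralateral arrays. Arrays share their hybridisation and scaling, so these values are descriptions.

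Single arrays departed from that relation. The 48 h BB tumour of rat 53 had Otx2 at 145 with Ttr at 256. Tumours of rat 6 at 6 h and rat 19 at 48 h after MRT had Otx2 at 98 and 84 with Ttr at 3284 and 2502. Sostdc1 in these tumours was 34 in rat 53, 102 in rat 6 and 66 in rat 19. Over all 59 tumours the median was 26 for Otx2 (1375465_at) and 66 for Sostdc1. Otx2 was thus above its median on these 3 arrays, while Sostdc1 was below its median in rat 53 alone.

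The second Otx2 probe set, 1375394_at, did not follow Ttr. It ran from 29 to 80 in tumours and from 38 to 154 in contralateral brain. Its r with Ttr over arrays with Ttr at 500 or more was -0.25 over 32 tumours and 0.15 over 50 contralateral arrays. The 154 belonged to the 48 h Untreated rat 18, and the other 55 contralateral values reached no higher than 63. Both Otx2 probe sets carry the same symbol, and their disagreement leaves the Otx2 level uncertain.

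Sostdc1, the secreted antagonist, gave the highest Pearson's r with Ttr of the 4 other probe sets, while by rank F5 was closer in contralateral brain. In contralateral brain it was 32 to 46 on the 6 low arrays and 55 to 2407 on the other 50, with no overlap. In tumours it was 24 to 131 on the 27 low arrays and 36 to 1295 on the other 32. With Ttr at 500 or more, r was 0.96 (rho 0.97) over 32 tumours and 0.89 (rho 0.90) over 50 contralateral arrays. Below that line it was 0.04 over 27 tumours.

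A pair of tumours with low Ttr stood apart for Sostdc1. The 8 d Untreated tumours of rats 27 and 28 had Sostdc1 at 108 and 131 with Ttr at 98 and 225. Elsewhere among the 27 tumours with Ttr under 500, Sostdc1 reached no more than 52. With rats 29 and 30 at 330 and 218, all 4 Untreated tumours at 8 d were above 100. The MRT tumours of that time ran from 26 to 493 (median 34), and the BB tumours stood at 26, 40, 114 and 1295.

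F5, the coagulation cofactor, followed Ttr in contralateral brain. It was 29 to 39 on the 6 low arrays and 32 to 1023 on the other 50, with r of 0.82 (rho 0.94) over the 50. Over the 32 tumours with Ttr at 500 or more, r was 0.82 (rho 0.84).

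In tumours with low Ttr, F5 was not uniformly low. It ran from 19 to 140 over the 27 low tumours, against 29 to 665 over the other 32, and r with Ttr was -0.16 over the 27. At 48 h the 8 MRT tumours had F5 from 81 to 244 with a median of 98.5. The 4 BB tumours stood at 41, 43, 44 and 665, and the Untreated tumours at 19, 31, 49 and 117. Of the 8 MRT tumours, 5 had Ttr under 500, and their F5 was 81, 82, 96, 99 and 99, above the Untreated tumours other than rat 16. The log2 difference of F5, MRT minus Untreated, was 1.45 ± 0.68, beside -0.34 ± 1.70 for Ttr (SE).

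**Figure D3:**
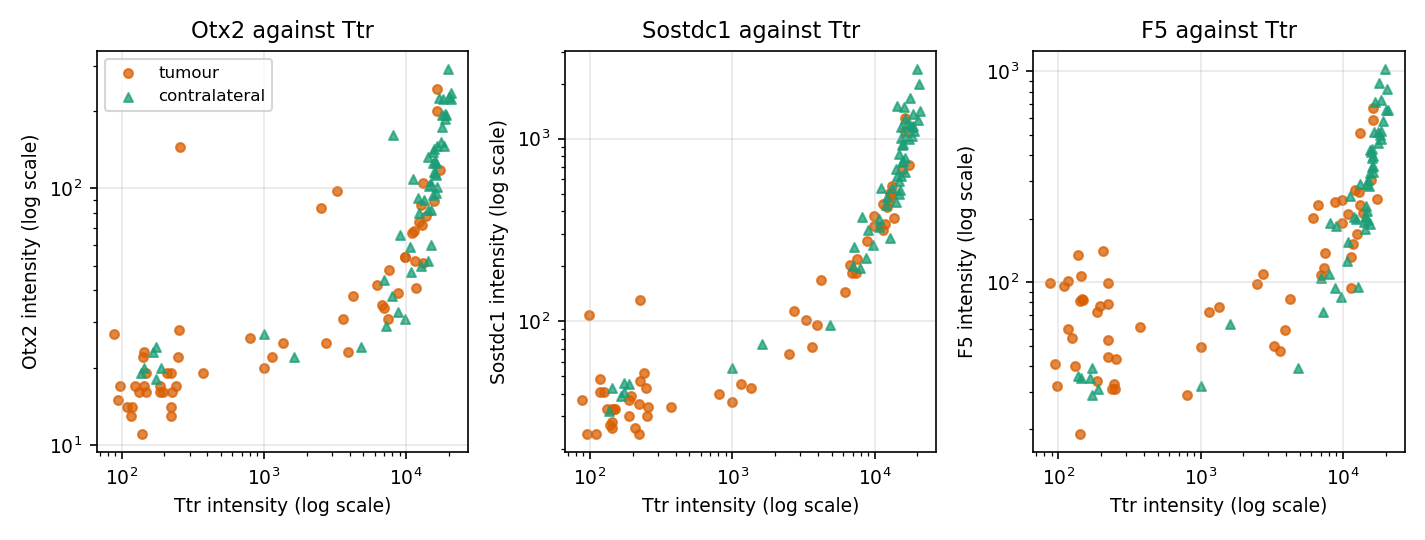
Otx2 (1375465_at), Sostdc1 and F5 intensity against Ttr intensity on all 115 arrays, all axes on log scales; circles are tumours and triangles contralateral brain. Where Ttr is at 10000 or more, the genes span from 4.1-fold to 10.8-fold within a tissue. Over the 32 tumours with Ttr at 500 or more, each rises with Ttr (r of 0.70 to 0.96). F5 scatters from 19 to 140 in tumours with Ttr under 500.

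The other genes varied among the arrays brightest for Ttr. Over the 40 contralateral arrays with Ttr at 10000 or more, Otx2 (1375465_at) spanned 6.21-fold, Sostdc1 8.42-fold and F5 10.8-fold. Over the 14 such tumours the spans were 5.98-fold for Otx2, 4.08-fold for Sostdc1 and 7.07-fold for F5. The arrays were picked by their Ttr level, so the span of Ttr itself is not set beside these.

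Of the 15 comparisons, those of contralateral brain at 8 d gave the largest differences for Ttr, Sostdc1, F5 and Otx2 by 1375465_at; the second Otx2 probe set had its largest at 48 h. F5 ran from 109 to 514 after MRT (median 341), and after BB it stood at 255, 293, 711 and 1023. In Untreated brain it stood at 35, 36, 39 and 95, below every irradiated array. The log2 difference was 2.56 ± 0.77 for MRT and 3.38 ± 0.84 for BB (SE).

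Sostdc1 at that time ran from 196 to 1192 after MRT (median 705) and stood at 538, 825, 1209 and 2407 after BB. The Untreated arrays stood at 32, 39, 46 and 286. Rat 29, at 286, lay within the MRT range but below every BB array. The log2 difference was 3.17 ± 0.89 for MRT and 4.07 ± 0.97 for BB (SE).

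Otx2 (1375465_at) ran from 38 to 173 after MRT (median 95) and stood at 104, 109, 225 and 292 after BB. Untreated brain had 18, 19, 23 and 50. The log2 difference was 1.78 ± 0.63 for MRT and 2.72 ± 0.69 for BB (SE). The other Otx2 probe set gave -0.07 ± 0.16 for MRT and -0.02 ± 0.18 for BB.

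Of the 5 probe sets, 1 had groups that did not overlap after MRT at 8 d, where 9.75% of all 20826 probe sets had none, and 3 after BB, where 14.4% had none. In BB tumours at 48 h, 1 of the 5 had groups without overlap, the second Otx2 probe set, where 16.7% of all probe sets had none. In the other 12 comparisons no probe set of these genes had groups without overlap. In contralateral brain the share over all probe sets was 2.73% after MRT and 15.3% after BB at 6 h, 5.17% and 20.1% at 48 h, and 17.1% for MRT against BB at 15 d. In tumours it was 0.442% and 4.14% at 6 h, 3.13% after MRT at 48 h, 31.3% and 20.2% at 8 d and 17.6% at 15 d, and it was 16.5% between the Untreated tissues. The genes were chosen on these arrays, so nothing is read from those counts. All BB arrays carry their own set of labels with other processing notes, so BB and that set cannot be told apart.

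At 6 h Sostdc1, F5 and Otx2 (1375465_at) were also lowest in rat 1 among the Untreated contralateral arrays. Sostdc1 ran from 201 to 1171 after MRT (median 500) and from 364 to 1984 after BB (median 1141.5). The Untreated arrays stood at 43, 679, 1009, 1411 and 1491, with rat 1 the lowest. The log2 difference was -0.23 ± 0.77 for MRT and 0.84 ± 0.83 for BB (SE). For F5 it was -0.06 ± 0.66 for MRT and 0.87 ± 0.72 for BB, and for Otx2 (1375465_at) -0.29 ± 0.54 for MRT and 0.48 ± 0.59 for BB.

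At 48 h the arrays of rats 25, 50 and 15 were again the lowest of their groups for Sostdc1 and F5. Sostdc1 was 75 in MRT rat 25, 45 in BB rat 50 and 41 in Untreated rat 15. F5 was 63, 31 and 29 in the same rats. The log2 difference of Sostdc1 was 0.43 ± 0.86 for MRT and -0.27 ± 1.05 for BB, and that of F5 was 0.74 ± 0.75 for MRT and 0.06 ± 0.91 for BB (SE). None of these 4 differences at 48 h exceeded its standard error. The second Otx2 probe set differed by -0.44 ± 0.16 for MRT and -0.51 ± 0.19 for BB, beside the Untreated array of rat 18 at 154.

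At 15 d the contralateral differences, MRT minus BB, were 1.24 ± 0.69 for Otx2 (1375465_at), 1.66 ± 0.97 for Sostdc1 and 1.62 ± 0.84 for F5 (SE). Sostdc1 stood at 260, 435, 526 and 1267 after MRT and at 55, 95, 221 and 655 after BB. F5 stood at 85, 204, 304 and 653 after MRT and at 32, 39, 94 and 332 after BB. Each pair of groups overlapped.

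Between the tissues of Untreated rats, levels were lower in tumour over all times together, with ranges that overlapped. The log2 difference, tumour minus contralateral, was -1.29 ± 0.93 for Ttr, -0.98 ± 0.42 for Otx2 (1375465_at), -1.23 ± 0.62 for Sostdc1 and -0.78 ± 0.46 for F5 (SE, 13 arrays of each tissue). At 8 d alone the mean log2 levels ran the other way: Ttr averaged 10.18 ± 3.47 in tumour and 8.89 ± 3.17 in contralateral brain (SD, n = 4 each). At that time Sostdc1 averaged 7.48 ± 0.73 in tumour and 5.99 ± 1.46 in contralateral brain, F5 6.39 ± 1.24 and 5.54 ± 0.69 in the same order, and Otx2 (1375465_at) 4.93 ± 1.05 and 4.65 ± 0.68. The ranges overlapped for each gene.

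The genes whose log2 level was most like that of Ttr were ranked by Pearson's r in each tissue. Over 59 tumours the 10 highest Pearson r values among 14213 genes ran from 0.71 to 0.85. They belonged to Mfrp, Prlr, Krt18, Cldn2, Cltrn, Slco1a5, Bhmt2, C1qtnf3, Scgb1c1 and C8h11orf97. Over 56 contralateral arrays they ran from 0.71 to 0.80 and belonged to Folr1, Enpp2, Mfrp, Vav3, Krt18, Calml4, Prlr, Cfap144, Cldn2 and Cltrn. The tissues shared 5 of these, namely Mfrp, Prlr, Krt18, Cldn2 and Cltrn. The median r over all genes was 0.00 in tumours and 0.03 in contralateral brain.

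A list of 35 other choroid plexus genes, of which 32 were measured, was set beside them; Clic6, Slc4a5 and Lmx1a were not measured. It held 4 of the 10 genes most like Ttr in tumours and 6 of the 10 in contralateral brain. An r over 0.5 was found for 9 of the 32 in tumours, against 34 of 14213 genes, and for 15 of the 32 in contralateral brain, against 119 of 14213. Examples are Folr1, the folate receptor of the epithelium, with r of 0.71 in tumours and 0.80 in contralateral brain, and Cldn2, a pore-forming tight junction protein, with 0.79 and 0.74. The mean log2 level of the list, over arrays with Ttr at 500 or more, had r with Ttr of 0.73 (rho 0.83) over 32 tumours and 0.71 (rho 0.87) over 50 contralateral arrays. The median r of the 32 genes was 0.25 in tumours and 0.46 in contralateral brain. A part of the list thus moved with Ttr, and the list was chosen with earlier results of these arrays known.

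Other genes of the list followed Ttr weakly, or in 1 tissue. Aqp1, the water channel of the epithelium, had r of 0.24 in tumours and 0.13 in contralateral brain, and ran from 35 to 7668 in tumours. Igfbp2, a binding protein of insulin-like growth factors, had r of -0.12 in tumours and 0.51 in contralateral brain.

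**Figure D4:**
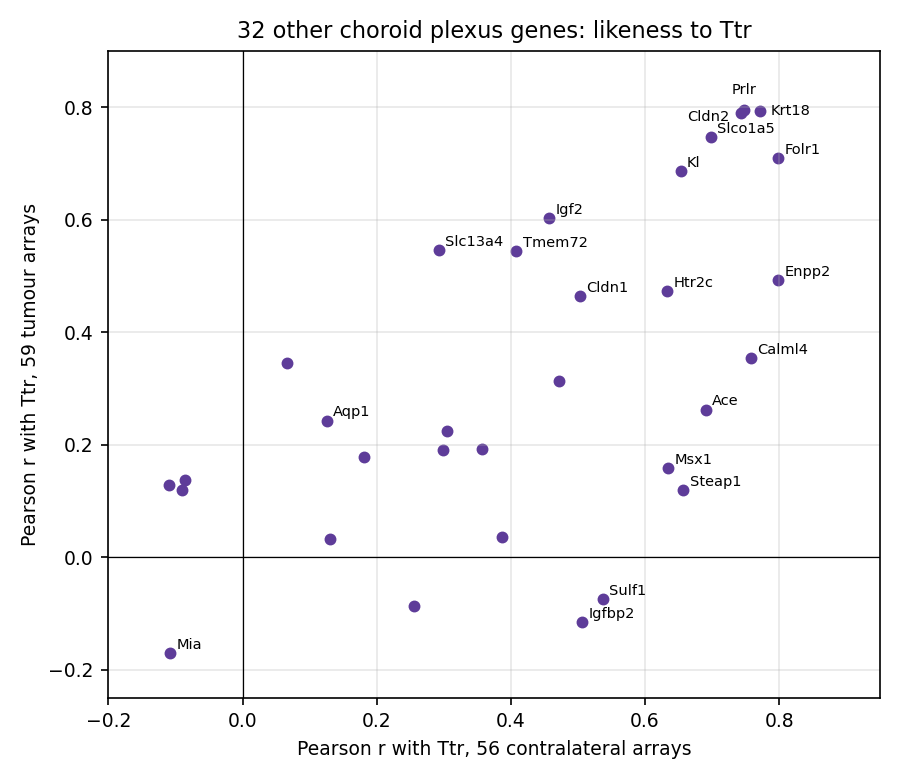
Pearson r of each of 32 other choroid plexus genes with Ttr (log2 levels), over 59 tumour arrays (vertical) and 56 contralateral arrays (horizontal); each point is 1 gene. Prlr, Krt18, Cldn2, Slco1a5 and Folr1 lie in the upper right with r of about 0.7 or more in both tissues, while Mia is below 0 in both.

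Lists for neighbouring cells and regions were read over the same arrays. Ependyma, the ciliated lining of the ventricles, had a mean log2 level with r with Ttr of 0.42 over 59 tumours and 0.63 over 56 contralateral arrays. The striatum list gave 0.16 in tumours and 0.48 in contralateral brain, and the thalamus list 0.25 in tumours and 0.36 in contralateral brain. The cerebral cortex list gave -0.19 in tumours and -0.31 in contralateral brain, and the hippocampus list -0.06 and 0.22. With the tumour value first, neurons gave -0.15 and -0.36, meninges and stroma 0.10 and -0.30, blood -0.10 and -0.02, and 9L tumour and mitosis genes 0.10 and -0.05. By Pearson's r, pieces with more Ttr thus tended to have higher ependymal and, more weakly, thalamic levels in both tissues. In contralateral brain striatal levels also tended to be higher, and neuronal, cortical and meningeal levels lower. Ranks gave a partly different order. In contralateral brain Spearman's rho was 0.31 for hippocampus, -0.18 for meninges and stroma, -0.26 for cortex and -0.33 for neurons. In tumours it was 0.24 for striatum and 0.26 for thalamus. All these values pool the treatments and times of a tissue.

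At 8 d some of the other choroid plexus genes were called higher in irradiated contralateral brain, and most were not called. In BB brain 9 of 32 were called higher and 0 lower, where 2.55% of all probe sets were called higher and 5.51% in either direction (limma, Benjamini-Hochberg adjusted p under 0.05). Their median log2 difference was 0.53, against -0.01 over all probe sets. Prlr, the prolactin receptor, ran from 120 to 344 in BB brain, against 26 to 73 in Untreated brain, a log2 difference of 2.41 ± 0.60 (adjusted p = 0.012). Htr2c, the serotonin receptor of the epithelium that striatal neurons also carry, differed by 2.04 ± 0.44 (adjusted p = 0.0047). Krt18, an epithelial keratin, differed by 1.82 ± 0.43 and Ace, the angiotensin-converting enzyme, by 1.50 ± 0.36. Enpp2, which makes lysophosphatidic acid, differed by 1.43 ± 0.36 and Igfbp2 by 1.10 ± 0.28. The count was 4 without Untreated rat 28, and 5 without Untreated rat 30 or without BB rat 56 or rat 57. With the Ttr level as a covariate it was 0 (2 at an unadjusted p under 0.05). Treatment and Ttr level moved together at 8 d, so nothing is read from that drop.

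In MRT brain at 8 d, 3 of 32 were called higher and 0 lower, where 4.12% of all probe sets were called higher and 6.08% in either direction. The median log2 difference was 0.37, against 0.00 over all probe sets. Igfbp2 ran from 1549 to 2887 in MRT brain, against 457 to 509 in Untreated brain, a log2 difference of 2.17 ± 0.25 (adjusted p = 9.5e-09, limma). Ace differed by 1.18 ± 0.33 and Krt18 by 1.33 ± 0.39. The count was 1 without Untreated rat 30 or rat 39, and 1, Igfbp2, with the Ttr level as a covariate. The covariate fit has the same limit here as for BB.

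**Figure D5:**
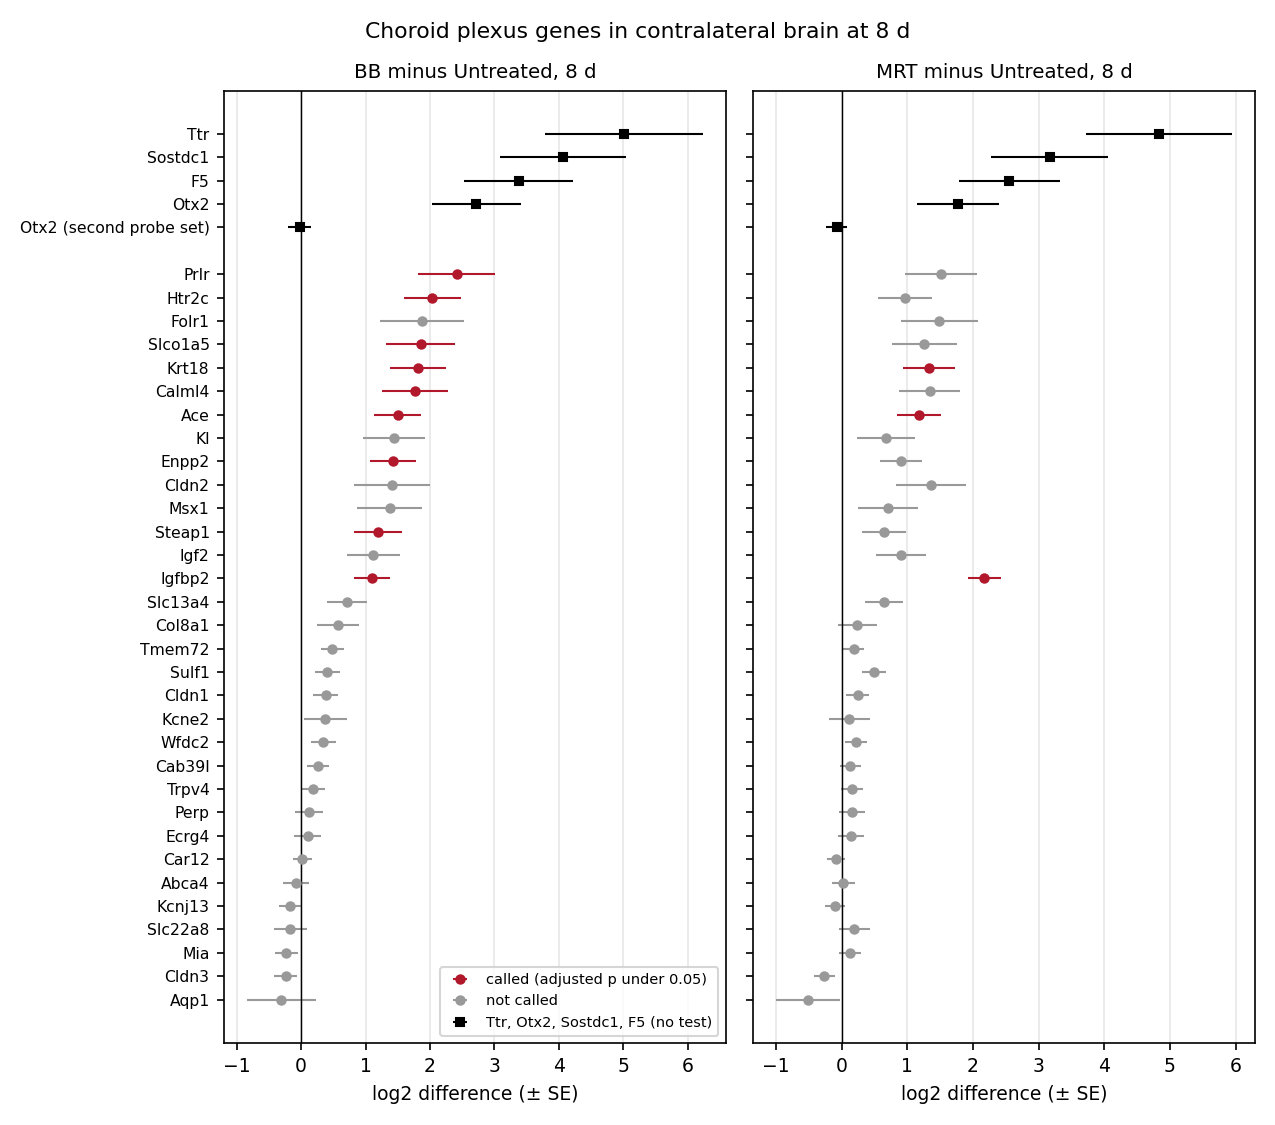
Log2 differences (± SE) from Untreated contralateral brain at 8 d of 32 other choroid plexus genes (circles) and of the 5 probe sets of Ttr, Otx2, Sostdc1 and F5 (squares, no test), after BB (left) and MRT (right). Red circles mark genes called at adjusted p under 0.05, 9 after BB and 3 after MRT; Ttr has the largest difference in both panels.

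Ventricular and striatal genes differed in the same comparison. Of 14 ependymal genes, 8 were called higher in MRT brain and 10 in BB brain, and none lower, where 4.12% and 2.55% of all probe sets were called higher. Rsph1, a protein of motile cilia, differed by 0.79 ± 0.15 for MRT and 0.83 ± 0.17 for BB. The mean log2 level of the ependymal list ran from 6.37 to 6.94 after MRT and 6.58 to 6.89 after BB, against 5.79 to 6.43 in Untreated brain. Of 11 striatal genes, 5 were called higher after BB, beside that 2.55%, among them the dopamine receptor Drd1 (2.65 ± 0.65). After MRT the count was 0 by limma (6 at an unadjusted p under 0.05). The striatal mean ran from 9.09 to 10.49 after MRT and 9.91 to 10.95 after BB, against 8.33 to 9.88 in Untreated brain. Such calls were not particular to contralateral brain. In tumours at 8 d, 7 of 14 ependymal genes were called higher after MRT and 8 after BB. Of 11 striatal genes, 10 were called higher after each. Of all probe sets, 42.1% were called in tumours after MRT and 20.1% after BB, in either direction. Ttr in those tumours differed by -0.32 ± 1.74 for MRT and 0.51 ± 1.96 for BB (SE). The part of ependymal and striatal levels in the contralateral Ttr difference was not tested.

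Over all probe sets, a fit with the Ttr level as a covariate called far fewer at 8 d in contralateral brain, and similar numbers at 6 h and 48 h. With it, 144 probe sets were called for BB, against 1147 without it, and 139 were in both sets. For MRT the counts were 550 with it and 1266 without it, with 514 in both. At 6 h they were 1307 with it and 1321 without it for MRT, and 3951 and 4050 for BB. At 48 h they were 6900 with it and 6622 without it for MRT, and 4642 and 4875 for BB. As 3 of the 4 Untreated arrays at 8 d were low, treatment and Ttr level moved together there, and the fit cannot separate them well.

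At 48 h the contralateral calls of the list were mostly lower, as the median over all probe sets was. After MRT, 1 of 32 was called higher and 5 lower, where 31.8% of all probe sets were called, and the median difference was -0.20, against -0.14 over all probe sets. Ecrg4, a secreted peptide precursor of the epithelium, differed by -0.93 ± 0.19 and Kcne2, a potassium channel subunit, by -0.78 ± 0.30. After BB, 4 were called lower, where 23.4% of all probe sets were called, and the median was -0.34, against -0.14 over all probe sets. One Untreated array stood above the others: in rat 18 Ecrg4 was 356, against 121 to 195 in the other 3 Untreated rats, and Car12, a carbonic anhydrase, was 136, against 50 to 59. Without rat 18 the count was 2 for MRT and 0 for BB. For BB it was also 0 without BB rat 50 or rat 51, 1 without BB rat 52 and 8 without Untreated rat 16. Both shares lie below those over all probe sets.

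At 6 h, 2 of 32 were called lower after MRT, where 6.34% of all probe sets were called. Slc22a8, an organic anion transporter also found in brain vessels, ran from 132 to 404 in MRT brain, against 290 to 546 in Untreated brain (log2 difference -1.25 ± 0.20). Slc13a4, a sulfate transporter also found in the meninges, differed by -1.08 ± 0.25. After BB, where 19.4% were called, 1 was higher, Htr2c (1.04 ± 0.38), and 1 lower, Slc22a8 (-1.39 ± 0.22). Neither transporter had followed Ttr in contralateral brain, with r of -0.11 for Slc22a8 and 0.29 for Slc13a4. The BB count was 1 without any one of the Untreated rats 1, 3, 4 or 5. At 15 d, where 4.21% of probe sets were called between MRT and BB, the one list gene called was Igfbp2 (2.22 ± 0.28). It stood at 2100 to 3171 after MRT, against 388 to 869 after BB. In that comparison 4 of 14 ependymal genes were called higher after MRT, and 2 of 8 genes of the 9L tumour and mitosis list lower. The mean log2 level of the 9L list ran from 6.90 to 7.73 after MRT, against 6.56 to 9.43 after BB. A link of these levels to Ttr was not tested.

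In tumours at 8 d the share of the list that was called was near that of all probe sets. After MRT, 5 of 32 were higher and 8 lower, where 42.1% of all probe sets were called, and after BB 2 were higher and 5 lower, where 20.1% were called. Aqp1 ran from 35 to 530 after MRT and 153 to 1704 after BB, against 4764 to 7668 in Untreated tumours. Its log2 difference was -5.52 ± 0.67 for MRT and -3.64 ± 0.76 for BB (adjusted p = 1.2e-08 and 0.00082, limma). Col8a1, a short-chain collagen, differed by -3.14 ± 0.45 for MRT and -1.82 ± 0.50 for BB. Calml4, a calmodulin-like protein, differed by -3.00 ± 0.50 for MRT and -1.79 ± 0.56 for BB. The genes named here are all lower ones, and those called higher are not named. The median log2 difference of the list was -0.05 after MRT, against -0.04 over all probe sets. After BB it was 0.08, against -0.01. Over 59 tumours, r with Ttr was 0.24 for Aqp1, 0.19 for Col8a1 and 0.35 for Calml4. Ttr itself differed by -0.32 ± 1.74 for MRT and 0.51 ± 1.96 for BB. The BB count was 3 without BB rat 56 and 4 without BB rat 55.

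In the remaining tumour comparisons few of the list were called. At 6 h the count was 0 after MRT, where 1.02% of probe sets were called by limma (2 of the list at an unadjusted p under 0.05). After BB it was 2 higher, Cab39l and Trpv4, where 14.3% were called, and 1 without any one of the 5 Untreated tumours. At 48 h it was 1 after MRT, Cab39l (0.50 ± 0.13), where 1.67% were called, and 0 without Untreated rat 16 or rat 17. At 48 h after BB it was 0 by limma, where 2.92% were called (6 at an unadjusted p under 0.05). At 15 d, MRT minus BB, it was 1 lower, Kl, the klotho gene (-0.91 ± 0.23), where 4.52% were called, and 0 without MRT rat 42 or rat 43 or BB rat 58 or rat 59.

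Between Untreated tumour and contralateral brain, 8 of the 32 were called higher and 21 lower, where 79.0% of all probe sets were called. Higher in tumour were Aqp1 (3.84 ± 0.37), Col8a1 (3.12 ± 0.24), Msx1 (2.53 ± 0.31), Abca4 (2.44 ± 0.23) and Steap1 (2.09 ± 0.23). Among the lower ones were Prlr (-0.87 ± 0.36) and Cldn2 (-1.04 ± 0.32). Msx1 and Steap1, higher in tumour, had r with Ttr of 0.63 and 0.66 in contralateral brain, but of 0.16 and 0.12 in tumours. All 8 genes of the 9L tumour and mitosis list were called higher in tumour.

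The pathways around the 4 genes were read from lists of their partners, in contralateral brain at 8 d, where 6.08% of all probe sets were called after MRT and 5.51% after BB. Of 10 genes for transthyretin ligands and their carriers, 2 were called lower in MRT contralateral brain at 8 d, Alb (-0.74 ± 0.14) and the thyroid hormone receptor gene Thra (-0.44 ± 0.13). In BB brain Alb (-0.53 ± 0.15) and Thra (-0.51 ± 0.14) were lower and the retinoid receptor gene Rxrg (1.78 ± 0.52) was higher. Calls in this list were not limited to 8 d. At 6 h, 2 of the 10 were called after MRT and 3 after BB, where 6.34% and 19.4% of all probe sets were called. At 48 h, 3 were called after MRT and 1 after BB, where 31.8% and 23.4% were called. Of 11 coagulation genes, 1 was called in MRT brain, a share near that of all probe sets: Pros1, which encodes protein S, was higher (0.72 ± 0.17), and 0 were called in BB brain (0 also at an unadjusted p under 0.05).

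Of 16 genes of bone morphogenetic protein and Wnt signalling, the pathways Sostdc1 acts on, 4 were called lower in MRT brain and 3 in BB brain at 8 d, beside the same 6.08% and 5.51%. They included the ligand gene Bmp4 (-0.98 ± 0.20 for MRT and -0.85 ± 0.21 for BB) and the target gene Id3 (-0.94 ± 0.22 and -1.15 ± 0.24 in the same order). Such calls were not particular to 8 d. At 6 h, 5 of the 16 were lower after MRT, where 6.34% of all probe sets were called. After BB at 6 h, 2 were higher and 4 lower, where 19.4% were called. Sostdc1 itself differed at 6 h by -0.23 ± 0.77 for MRT and 0.84 ± 0.83 for BB (SE). A link of these calls to the Sostdc1 level was not tested. Between Untreated tumour and contralateral brain, where 79.0% of all probe sets were called, calls were made in all 16 (8 higher and 8 lower), in 9 of 10 ligand and carrier genes (2 higher and 7 lower) and in 9 of 11 coagulation genes (7 higher and 2 lower), and nothing particular to the lists is read from these counts. The largest by statistic were Bmp2 (3.94 ± 0.24), Dio2, a thyroxine deiodinase (-1.61 ± 0.17), and Pros1 (1.67 ± 0.11).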

How the data were processed

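Total RNA (200 ng) was hybridised to an Affymetrix rat array, 1 array for each of 115 pieces, per the labels' protocols. The authors used Affymetrix Expression Console, with RMA for all arrays and MAS5 also named for all but the BB arrays, per the submitters' processing notes; versions are not given in the sources used here. The deposited values are intensity, whole numbers from 7 to 27837 with array medians of 117 to 165. Detection calls were not used, so low values may be background. As the planned fit needs a log scale, these intensities were turned into log2 values first.

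Of 31099 probe sets, 20826 carry exactly 1 symbol; 57 are controls, 436 carry several symbols and 9780 carry no symbol. Those with 1 symbol were fitted with limma 3.58.1 in R 4.3.3, 1 mean per group within a tissue, with empirical Bayes variances that follow intensity. The comparison of Untreated tissues used all 115 arrays. P-values were adjusted by Benjamini-Hochberg over all probe sets, and a call is an adjusted p under 0.05. A gene in a list is its brightest probe set. The fit was tested on simulated data. SE of a difference comes from this fit.

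The 4 genes and all gene lists were chosen with earlier results of these data known. Named besides the 4 are the 10 genes most like Ttr in each tissue, up to 6 called genes of the other choroid plexus list in a comparison (at most 2 where none was called) and up to 3 of each other list, by moderated statistic; not all are named, and Prlr, Cldn2, Folr1, Aqp1, Igfbp2, Ecrg4, Kcne2, Car12, Calml4, Slc22a8, Slc13a4 and Thra also stand as examples, chosen after their values were seen. The line at 500 was set after the Ttr values were seen.

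Groups come from the labels; 1 BB tumour (rat 61, 15 d) takes its time from its title. Rat numbers pair the tissues of an animal: in 41 of 55 rats the departures of tumour and contralateral piece from their group means correlated at over 0.1, with a median of 0.20, against -0.05 for other rats of the group. Alternatives were quantile normalization, a common median, 1 probe set per gene, leaving out the dimmest 30% of probe sets, the Ttr covariate, the rat as a block, and leaving out each array of groups of 5 or fewer. Python 3.11.15 with pandas 2.3.3 and numpy 2.4.6 made the summaries, and matplotlib 3.10.9 the plots. Coordinates and promoters come from RefSeq tables for GRCr8, in which 20758 probe sets matched by gene ID.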

Additional observations from a re-analysis of the deposited data

Results flagged for a closer look

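In groups of 4 to 10 arrays, 10 values of 105 screened groups lay far from the other arrays of their group. Chance flags about 1 in 20 such groups, and probe sets of the same array are not independent. The genes were chosen with these values known, so the flags only point to arrays and nothing is read from their number. For Ttr in contralateral brain these were MRT rat 25 at 48 h (1622, the others 8987 to 18655), Untreated rat 1 at 6 h (144, the others 14155 to 20696), Untreated rat 15 at 48 h (174, the others 12259 to 19011) and Untreated rat 29 at 8 d (12735, the others 137 to 174). Sostdc1 in Untreated contralateral brain was 43 in rat 1 at 6 h, against 679 to 1491 in the others, and 286 in rat 29 at 8 d, against 32 to 46. F5 in rat 29 was 95, against 35 to 39 in the other Untreated arrays at 8 d. In BB tumours, Sostdc1 at 1095 and F5 at 665 in rat 52 at 48 h stood above the others, at 24 to 34 and 41 to 44. Otx2 (1375465_at) was 245 in BB rat 54 at 8 d, where the other tumours had 19 to 26.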

How the results depend on the processing

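The counts of the other choroid plexus list moved by over 1.5 times under these settings. With quantile normalization they were 1 for contralateral BB at 6 h, 2 for contralateral BB at 48 h, 1 for BB tumours at 6 h and 0 for MRT tumours at 48 h, and the last was also 0 with a common median. With 1 probe set per gene the contralateral 15 d count was 2. Without the dimmest 30% of probe sets, where fewer list genes were tested, they were 3 for contralateral MRT and 1 for contralateral BB at 48 h, 2 for contralateral brain at 15 d, 1 for BB tumours at 6 h, 0 for tumours at 15 d and 16 for Untreated tumour against contralateral. With the Ttr covariate they were 1 for contralateral MRT and 0 for contralateral BB at 8 d and 1 for BB tumours at 6 h, and the calls over all probe sets at 8 d were 550 and 144. Why these moved was not tested.

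With the rat as a replicate block the Untreated tissue comparison had 30 calls, against 29 without it, and no other comparison pairs tissues.

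Leaving out 1 array gave contralateral counts of 2 to 2 (MRT 6 h), 1 to 2 (BB 6 h), 2 to 9 (MRT 48 h), 0 to 8 (BB 48 h), 1 to 4 (MRT 8 d), 4 to 10 (BB 8 d) and 1 to 2 (15 d, 2 without MRT rat 43 or BB rat 61). In tumours they were 0 to 0 (MRT 6 h), 1 to 1 (BB 6 h), 0 to 1 (MRT 48 h), 0 to 1 (BB 48 h, 1 without BB rat 52), 10 to 13 (MRT 8 d), 3 to 10 (BB 8 d) and 0 to 1 (15 d). The Untreated tissue comparison gave 26 to 30. The limits are groups of 3 to 9 arrays, a BB set with labels of its own, no Untreated rats at 15 d, and no detection calls for dim probe sets.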
